A study of Sus scrofa with 70 samples.

Results

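The beta-defensin family of the boar reproductive tract, together with the related gene SPAG11, was examined in RNA-seq and Iso-seq data of 5 organs, the testis and epididymis and, of the accessory glands, the prostate, vesicular and bulbourethral glands. Members were all genes whose name in the deposited annotation begins with DEFB, PBD or SPAG11, and 18 of its 42873 genes matched. A short-read level above 0 in any library was found for 35552 genes. One of the 18, PBDC1, shares the letters PBD only and is no beta-defensin: it lay between 2.61 and 9.01 TPM in all 30 RNA-seq libraries and is left out below. Of the remaining 17, DEFB108B had no entry among the short-read levels used here, so 16 genes carry the results. The samples were taken from adult boars aged 12 months of 2 breeds, BMI, an inbred line of the Banna mini-pig, and DSE, the Diannan small-ear pig, which is not inbred. Each breed and gland had 3 RNA-seq libraries and 1 Iso-seq library, and no treatment or genetic change was applied to any group. The labels do not say which libraries came from the same boar or which region of the epididymis was sampled, and where separate libraries are not separate animals the tests measure technical spread.

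Beta-defensins are small secreted peptides of the innate immune system. They are held together by 3 disulfide bonds between 6 cysteines, and most can damage the membranes of microbes. In the epididymis, the long duct in which sperm mature, many members are made by the epithelium of a particular segment, and several coat the sperm surface, where DEFB126 of primates is the best known case. SPAG11 is a sperm-binding protein of the epididymis that shares the beta-defensin fold. The duct runs from the initial segment and caput next to the testis through the corpus to the cauda, where sperm are stored.

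All 17 members encode the 6-cysteine pattern in the pig genome Sscrofa11.1, the build of the deposited annotation. A search of their Ensembl transcripts, spliced from the RefSeq copy of that build, found a frame with 6 cysteines spaced as in a beta-defensin in 17 of 17, each time within 1 exon, over 84 to 93 bases. In 7 members the residues between neighbouring cysteines numbered 6, 3, 9 and 5, with the fifth and sixth cysteine adjacent. SPAG11 and both genes named DEFB1 shared another spacing, 6, 4, 9 and 6. DEFB110 and DEFB114 shared 6, 3, 9 and 6. DEFB108B, 1 of the 7, holds 2 further cysteines between those counted, and the other 16 spans hold none. A frame from the first ATG to a stop was found for 16 members, from 60 residues in DEFB121 to 173 in DEFB129, and not for DEFB115, whose Ensembl transcript has none that holds the cysteines. The bases from the first to the sixth cysteine are given, 5′ to 3′ on the coding strand, for the 8 members on which the results turn. Capitals mark the cysteine codons.
SPAG11, chr15:38037368-38037460, plus strand: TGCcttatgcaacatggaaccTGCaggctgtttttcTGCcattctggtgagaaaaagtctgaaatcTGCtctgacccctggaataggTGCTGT
DEFB128, chr17:34965101-34965190, plus strand: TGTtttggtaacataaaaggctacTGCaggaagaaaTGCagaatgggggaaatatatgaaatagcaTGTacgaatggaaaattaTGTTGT
DEFB129, chr17:34939672-34939755, minus strand: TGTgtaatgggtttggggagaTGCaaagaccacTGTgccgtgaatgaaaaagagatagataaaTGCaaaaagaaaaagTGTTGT
DEFB113, chr7:43999331-43999414, minus strand: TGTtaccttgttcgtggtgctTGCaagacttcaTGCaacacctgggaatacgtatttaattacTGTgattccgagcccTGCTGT
DEFB115, chr17:35030926-35031012, plus strand: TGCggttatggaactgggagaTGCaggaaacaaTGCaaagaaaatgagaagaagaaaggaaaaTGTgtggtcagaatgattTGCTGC
DEFB136, chr14:15110048-15110134, minus strand: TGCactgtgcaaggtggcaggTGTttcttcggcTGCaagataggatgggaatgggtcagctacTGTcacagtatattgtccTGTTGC
DEFB119, chr17:35131873-35131959, minus strand: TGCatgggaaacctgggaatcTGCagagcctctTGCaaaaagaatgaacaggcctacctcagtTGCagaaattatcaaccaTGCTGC
DEFB1 on the unplaced scaffold AEMK02000617.1, plus strand: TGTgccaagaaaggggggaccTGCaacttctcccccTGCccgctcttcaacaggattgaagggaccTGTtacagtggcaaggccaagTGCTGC

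The members lie in 4 chromosomal clusters and on 1 scaffold. Chromosome 17 holds 9 of them within 252 kb (34939180 to 35191549), in the order DEFB129, DEFB128, DEFB127, DEFB125, DEFB115, DEFB116, DEFB119, DEFB121 and DEFB123. Chromosome 7 holds DEFB114, DEFB113 and DEFB110 within 42.1 kb, chromosome 15 holds SPAG11, a DEFB1 gene and DEFB108B within 123 kb, and DEFB136 lies on chromosome 14. A second gene named DEFB1 (ENSSSCG00000029990) lies at 558 to 11154 of scaffold AEMK02000617.1, and RefSeq places its own DEFB1 at the same 2 loci. The genes were told apart by their IDs and are called DEFB1 chr15 and DEFB1 scaffold. The spliced transcripts of these 2 genes shared no word of 31 bases with each other or with any other of the 41265 annotated genes searched. Genes on other unplaced scaffolds were not searched. The same held for 11 further members, while DEFB136 shared 3.77% of its words with 1352 other genes. DEFB110, DEFB114 and DEFB123 overlap exons of a gene on the other strand over 397, 126 and 257 bases. The library kit that the methods name does not mark strand, so reads there cannot be told apart from those of the overlapping genes.

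In the RNA-seq data, levels are TPM, the usual share of all transcripts in a library scaled for transcript length, summed here over the transcripts of a gene. By mean and by median the epididymis carried the most beta-defensin RNA, although its lowest libraries lay within the range of the vesicular gland. The summed level of the members was 13090 TPM ± 12880 (SD, n = 6) in epididymis, with a lowest library of 2439, a median of 8721 and a highest of 35630. In vesicular gland it was 4189 ± 2313 TPM, from 1336 to 6798. Testis held 329.2 ± 109.2 TPM and bulbourethral gland 172.5 ± 104.6 TPM. In 5 prostate libraries the sum lay between 1.13 and 4.25 TPM, and in the other, BMI replicate 2, it was 1682 TPM. By mean level, 14 members were highest in epididymis, DEFB123 in testis and DEFB1 scaffold in vesicular gland. Of the 14, DEFB119 had a higher median in testis.

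**Figure D1:**
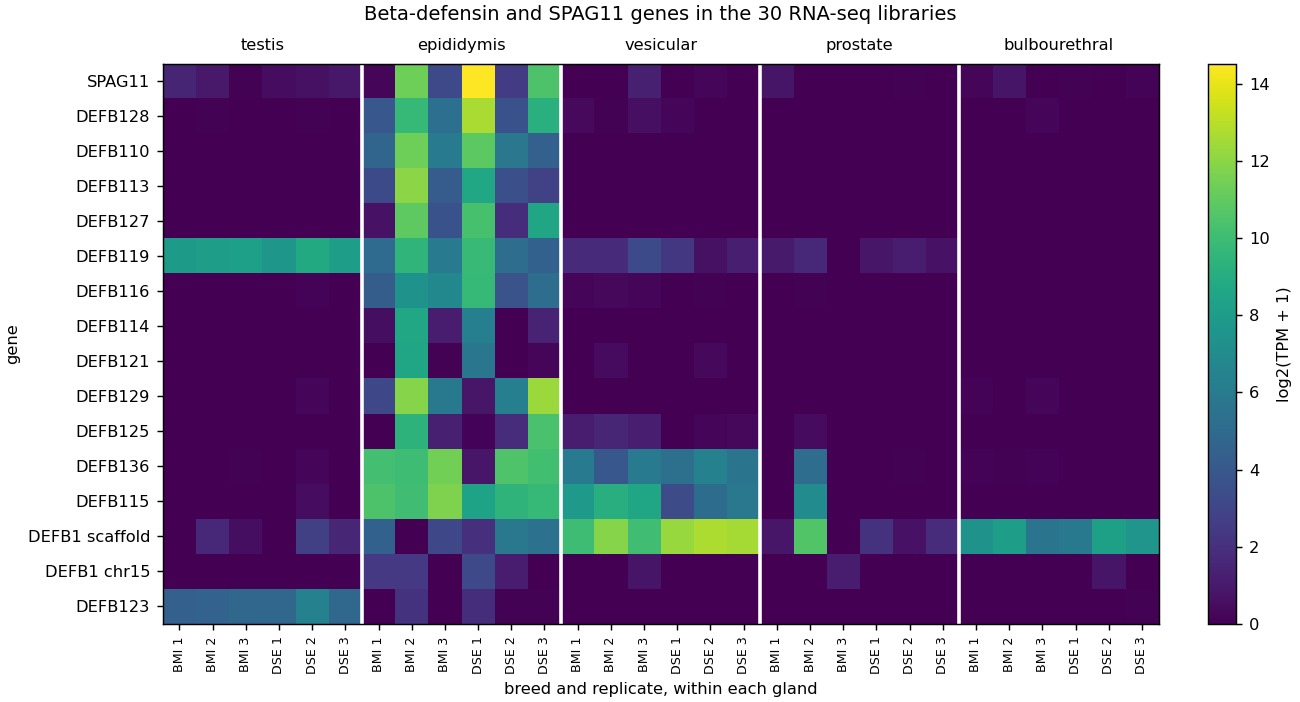
Level of the 16 measured members (rows) in the 30 RNA-seq libraries (columns, grouped by gland and marked by breed and replicate), as log2(TPM + 1). Colour fills most rows in the epididymis block alone and unevenly across its 6 libraries, DEFB119 and DEFB123 fill the testis block, and DEFB1 scaffold fills the vesicular and bulbourethral blocks.

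Marker lists were run for epididymis and testis and not for the accessory glands. Summed over 3 matched epididymis genes (of 6 listed), levels were 1569 to 5743 TPM in the epididymis libraries and at most 12.2 TPM elsewhere. The 8 spermatid markers summed to between 25640 and 117900 TPM in testis and at most 1041 TPM elsewhere. A prostate library stood apart. The 581 genes called higher in vesicular gland, members left out, made up 0.837% to 1.38% of all TPM in 5 prostate libraries and 44.2% in BMI prostate replicate 2, beside 54.3% to 69.4% in the vesicular libraries. The single BMI prostate Iso-seq library showed the same genes at 20.2% of its full-length reads, against 2.14% in DSE prostate, 17.7% in BMI vesicular gland and 19.1% in DSE vesicular gland. Results of members that rest on prostate gland are therefore given with and without BMI replicate 2.

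**Figure D2:**
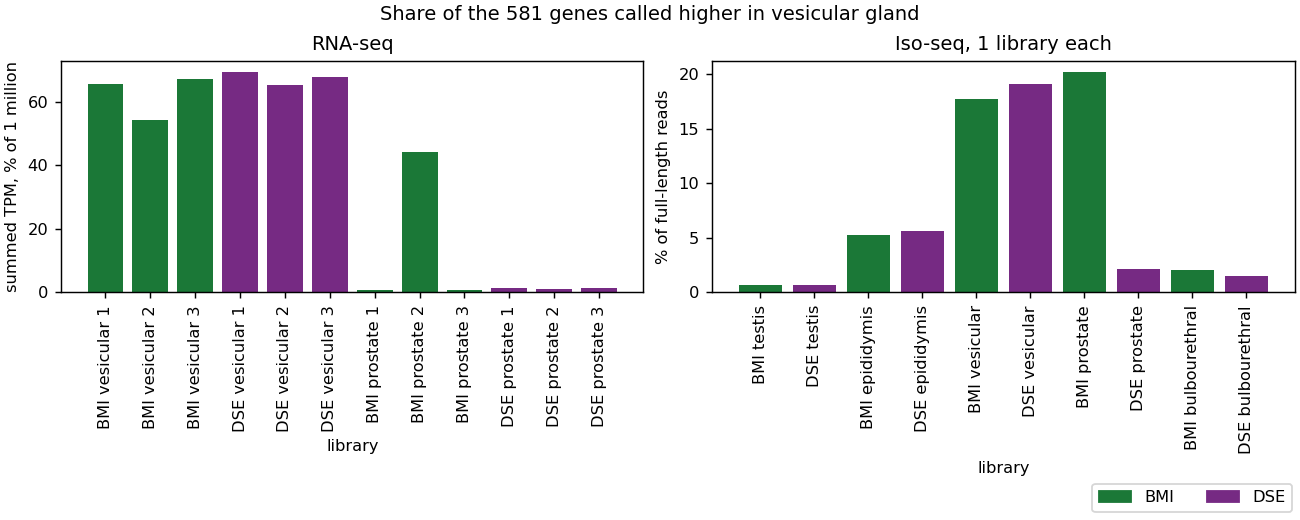
Share of the 581 genes called higher in vesicular gland, members left out, in each vesicular and prostate RNA-seq library (left, percent of all TPM) and in each Iso-seq library (right, percent of full-length reads), with bars coloured by breed. BMI prostate replicate 2 at 44.2% and the BMI prostate Iso-seq library at 20.2% stand with the vesicular libraries and not with the other prostate libraries.

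The question of which gland carries each member was addressed with 1 limma fit over the genes that reached 1 TPM in 3 or more libraries. A call needed an adjusted p (Benjamini-Hochberg) under 0.05 together with a difference of 1 or more on the log2(TPM + 1) scale. The fit estimates 1 spread per gene over all glands and breeds. For members near 0 outside the epididymis, the SE and p therefore understate the spread within the epididymis. This filter kept 15 members, and DEFB121 was not tested since it passed 1 TPM in 2 libraries only. Of the 15, 8 could not have passed the filter without the epididymis libraries, so that high values there chose them, and nothing is read from their calls in any gland (DEFB1 chr15, DEFB110, DEFB113, DEFB114, DEFB116, DEFB127, DEFB128 and DEFB129). In the same way DEFB123 passed through its testis libraries, and nothing is read from its calls. Of the other 6, 5 were called higher in epididymis than the mean of the other 4 glands (DEFB115, DEFB119, DEFB125, DEFB136 and SPAG11) and 0 lower, where 15.1% of all 19796 genes tested were called higher and 6.56% lower. The median difference was 5.32 over these 6 and 0.25 over all genes. The exception was DEFB1 scaffold, with a difference of -2.13 ± 0.95 (SE, limma adjusted p = 0.0568). DEFB1 scaffold was called lower in epididymis in 5 of 15 alternatives: with size factors (adjusted p = 0.0253), with a replicate block (0.0484), without BMI epididymis 1 (0.0351), without DSE epididymis 2 (0.0488) and without BMI prostate 2 (0.0132).

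Part of the family was listed at 0 or below 1 TPM in all libraries of the other glands. DEFB110, DEFB113 and DEFB114 were listed at 0 in all 24 libraries of the other glands. With DEFB116, DEFB121, DEFB127, DEFB128 and DEFB129, there were 8 members that reached 1 TPM in no library outside the epididymis. The share of all genes with such values was not counted, so these counts describe the members only. All 6 epididymis libraries lay above all 24 others for 6 members (DEFB110, DEFB113, DEFB116, DEFB127, DEFB128 and DEFB129), as for 3.02% of all genes tested. These 6 entered the table of tested genes through epididymis libraries alone, so nothing is read from the 2 figures. TPM keep no read count, and read totals per library were not used here, so no detection limit is set where a gene is listed at 0.

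SPAG11 had the highest mean in the epididymis of all members and the widest spread. It was measured at 0.137, 2539 and 8.19 TPM in BMI replicates 1 to 3 and at 23450, 4.85 and 1437 TPM in DSE replicates 1 to 3. The single library DSE 1 held 85.5% of the SPAG11 summed over the 6 libraries, and BMI 1 sat below 5 of the 6 testis libraries, which reached 1.87 TPM. The difference from the other glands was 6.69 ± 1.11 on the log2(TPM + 1) scale (SE, limma adjusted p = 1.89e-05).

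DEFB128, the second gene of the chromosome 17 cluster, showed a like order of libraries. Its level was 14.6, 841 and 39.1 TPM in BMI and 6468, 11.4 and 591 TPM in DSE. All 6 values were above the highest value elsewhere, 0.511 TPM.

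DEFB127, which begins 0.325 kb beyond DEFB128 on the genome and is read from the opposite strand, was at 0.639, 1951 and 11.8 TPM in BMI and at 1235, 2.78 and 373.8 TPM in DSE. Its high libraries were those of DEFB128 and SPAG11, with BMI 2 in place of DSE 1 at the top. Over the 6 epididymis libraries, Pearson's r of log2(TPM + 1) with SPAG11 was 0.982 for DEFB128 and 0.971 for DEFB127, given as a description since the points share the same 6 libraries and their tissue make-up.

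The 3 members on chromosome 7 were highest in BMI 2. DEFB113 was measured at 8.62, 4141 and 17.5 TPM in BMI and at 414.9, 10.7 and 5.97 TPM in DSE, so that 90% of its summed level came from 1 library. DEFB110 was measured at 25.5, 2511 and 61.6 TPM in BMI and at 1829, 53.8 and 20.6 TPM in DSE. DEFB114 reached 400.4 TPM in BMI 2 and 76.2 TPM in DSE 1, and no more than 1.72 TPM in the other 4 libraries. The gene on the strand opposite to DEFB110 was highest in the same libraries, at 135.7 TPM in BMI 2 and 89.99 TPM in DSE 1, and at most 5.09 TPM in the rest.

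In all, 11 of the 16 members had BMI 2 and DSE 1 as their 2 highest epididymis libraries, and they lie on chromosomes 7, 15 and 17. The share of all genes with the same 2 highest libraries was not counted. The 11 are therefore not read as a trait of the family. In these libraries DEFB119 reached 728.8 and 904.9 TPM and lay between 21.8 and 59.5 TPM in the other 4. DEFB116 reached 173.6 and 848.6 TPM and lay between 12.0 and 110.4 TPM elsewhere in the organ. DEFB121 reached 381.3 and 51.4 TPM and no more than 0.203 TPM in the rest. DEFB123 and DEFB1 chr15 stayed low throughout, with maxima of 3.33 and 8.10 TPM. The place of BMI 2 for DEFB1 chr15 rests on 4.38 TPM against 4.23 TPM in BMI 1. The gene that overlaps DEFB123 on the other strand was at 3241 TPM in BMI 2 and 178 TPM in DSE 1.

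A second pattern was held by DEFB129 and DEFB125, which lie in the same chromosome 17 cluster. DEFB129 was measured at 7.81, 3817 and 57.2 TPM in BMI and at 0.812, 77.01 and 5193 TPM in DSE. DEFB125 was measured at 0, 656.5 and 1.38 TPM in BMI and at 0.0914, 2.60 and 1303 TPM in DSE. Both were highest in DSE 3 and BMI 2 and near 0 in DSE 1, the library with the most SPAG11 and DEFB128.

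Another pattern was broad. DEFB115, also of the chromosome 17 cluster, was measured at 1421, 1092 and 3335 TPM in BMI and at 337.1, 700.8 and 850.6 TPM in DSE, and no epididymis library lacked it. DEFB136 was measured at 1165, 1047 and 2721 TPM in BMI and at 0.831, 1471 and 1128 TPM in DSE. Its 5 other libraries lay within 2721 and 1047 TPM, and DSE 1 stood alone near 0. The differences from the other glands were 8.004 ± 0.59 for DEFB115 and 7.23 ± 0.84 for DEFB136 (SE, limma adjusted p of 6.03e-11 and 1.35e-07).

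**Figure D3:**
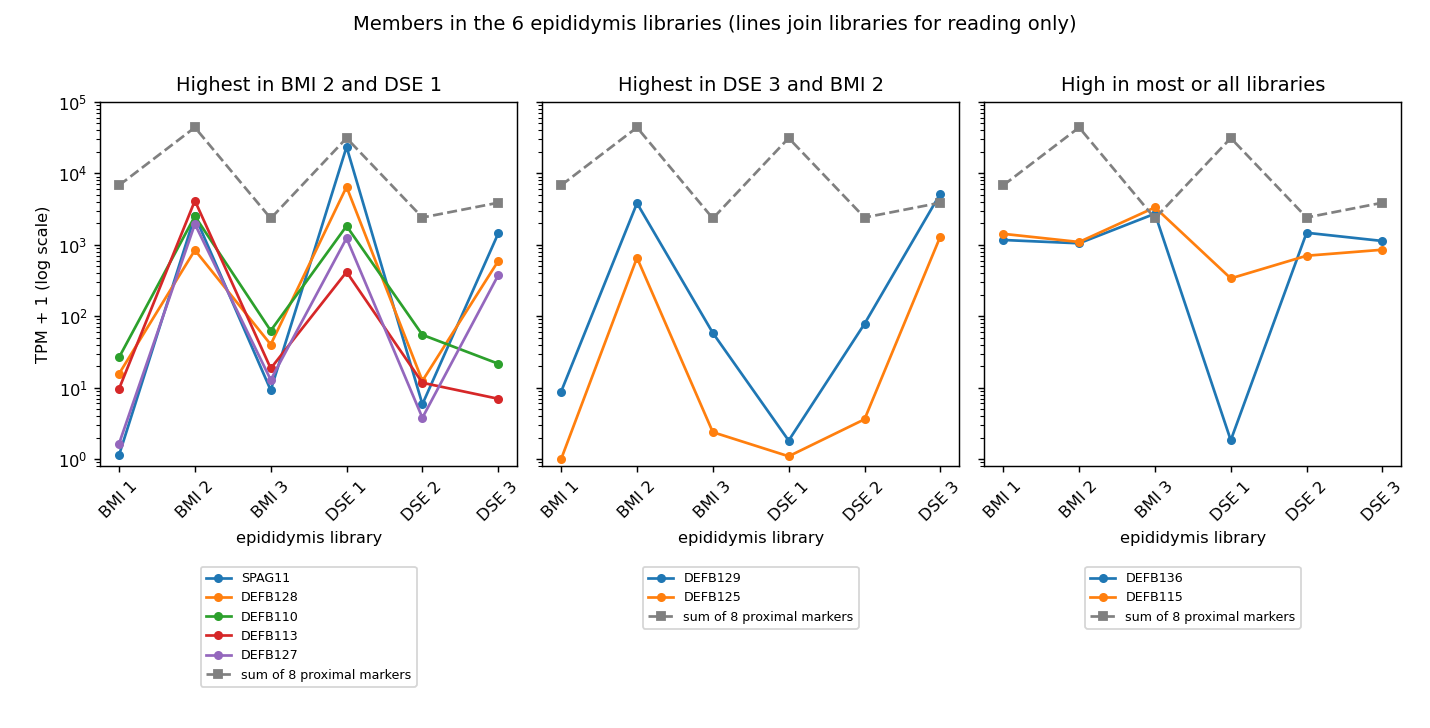
Level (TPM + 1, log scale) of 9 members in the 6 epididymis libraries (x axis, breed and replicate), in 3 panels by the libraries in which they are highest. The grey dashed line is the summed level of 8 markers of the proximal epididymis, highest at 43910 TPM in BMI 2 and 31180 TPM in DSE 1. Members of the left panel peak in these libraries, DEFB129 and DEFB125 drop in DSE 1, and DEFB115 stays between 337.1 and 3335 TPM throughout.

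As a result the leading member changed from library to library. DEFB115 led in BMI 1 and BMI 3 with 52.3% and 51.9% of the summed TPM of the family. DEFB113 led in BMI 2 with 20.4%, where 13 members were above 100 TPM. SPAG11 led in DSE 1 with 65.8%, DEFB136 in DSE 2 with 60.3% and DEFB129 in DSE 3 with 47.2%. The SD of log2(TPM + 1) over the 6 epididymis libraries had a median of 3.56 over the 15 members tested and of 0.491 over all genes tested. Of the 13 tested members with a mean of at least 10 TPM in the epididymis, 12 exceeded the 95th percentile of genes at that level, an SD of 1.60. Both sets include members that high epididymis values chose, so nothing is read from these figures. For the 6 members that needed no single gland to pass the filter, the SD was 1.10 for DEFB115, 2.24 for DEFB1 scaffold and 2.36 for DEFB119. It was 3.95 for DEFB136, 4.73 for DEFB125 and 5.80 for SPAG11.

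Markers of the regions and cell types of the organ also varied between these libraries. Some lists followed the patterns in part and others did not, and their part in the patterns was not tested. The 8 matched proximal markers (of 9 listed) summed to 6798, 43910 and 2338 TPM in BMI 1 to 3 and to 31180, 2406 and 3875 TPM in DSE 1 to 3, highest in the same 2 libraries as the 11 members, but not marker by marker. In BMI 2 the sum was spread over 7 markers above 1000 TPM, while in DSE 1 it was mostly CLU (19450 TPM) and CST11 (8045 TPM), and LCN8, RNASE10 and ADAM28 were at 5.78, 20.1 and 57.5 TPM there. Smooth muscle markers (5 of 5) ran from 2291 TPM in BMI 2 and 3705 TPM in DSE 1 up to 13750 TPM in BMI 1 and 20840 TPM in DSE 2. The 5 distal markers summed to between 16780 and 49750 TPM, with the maximum in BMI 3, where DEFB115 and DEFB136 were also highest. Their sum in DSE 1 was mostly NPC2 (32200 TPM), while CD52 was at 7.03 TPM there (others 2322 to 41560) and CRISP1 at 21.3 TPM (others 1100 to 2759), in the library where DEFB136 was near 0. Leukocyte markers (6 of 6) ran from 12.2 to 133.1 TPM, epithelial markers (4 of 4) from 732.1 to 1217 TPM, and markers of ciliated and efferent duct cells (4 of 5) from 10.5 to 40.0 TPM. Spermatid markers were at 1041 TPM in BMI 2 and at most 252.6 TPM in the other 5. By the quality measures that the study lists, DSE 1 also had the lowest RNA integrity score of the RNA-seq libraries, and the part of this in its values was not tested. In bulk tissue, fewer cells of a type and less RNA per cell cannot be told apart.

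The genes whose pattern over all 30 libraries was most like that of SPAG11 were CST11, TTC24, SLC13A2, EDDM13 and PDZK1, with Pearson's r of log2(TPM + 1) from 0.961 to 0.987. CST11, an epididymal cystatin and itself one of the proximal markers, was measured at 0.736, 5074 and 6.33 TPM in BMI and at 8045, 0.482 and 718.9 TPM in DSE. For DEFB119, the leading member in testis, they were LRRC71, C2orf72, C9, FHAD1 and MST1, with r from 0.930 to 0.942.

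Outside the epididymis, 5 calls of a higher level were made for 4 of these 6 members. In testis, DEFB119 was called higher than in the other glands, where 34.6% of all genes tested were. DEFB119, a member known from testis as well as epididymis, was measured at 243.5, 285.4 and 292.8 TPM in BMI testis and at 201.8, 451.4 and 277.5 TPM in DSE testis. These 6 values lay between the high and the low epididymis libraries, and epididymis and testis had means of 297.2 and 292.1 TPM and medians of 47.8 and 281.4 TPM. On the log2(TPM + 1) scale the epididymis was below the testis by a difference of -1.48 ± 0.68 (SE, limma adjusted p = 0.0547), which was not called. The difference of testis from the other glands was 5.80 ± 0.54 (SE, limma adjusted p = 3.91e-10).

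DEFB123 lies at the end of the chromosome 17 cluster and was measured at 20.7, 22.4 and 26.8 TPM in BMI testis and at 26.8, 82.2 and 27.7 TPM in DSE testis. No other library exceeded 3.33 TPM. The same testis values let the gene pass the filter, so no test is given for it, and nothing is read from the 23.8% of all genes tested whose 6 testis libraries lay above the 24 others. DSE testis replicate 2 had the highest value of both members, and in it the spermatid markers summed to 25640 TPM against 76710 to 117900 TPM in the other 5 testis libraries. Its 6 Sertoli cell markers summed to 597.5 TPM against 188.9 to 353.7 TPM. The part of these shifts in the 2 values was not tested.

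In vesicular gland, DEFB1 scaffold, DEFB115 and DEFB136 were called higher, where 2.95% of all genes tested were. DEFB1 scaffold, which carries PBD-2 among its RefSeq synonyms, was measured at 1043, 3774 and 1059 TPM in BMI and at 4896, 6681 and 6094 TPM in DSE. It made up most of the family's RNA in that gland and differed from the other glands by 7.99 ± 0.95 (SE, limma adjusted p = 9.41e-08). DEFB115 differed by 3.84 ± 0.59 (limma adjusted p = 3.59e-06). DEFB136 was measured at 59.1, 14.6 and 62.2 TPM in BMI and at 39.5, 81.7 and 47.7 TPM in DSE, and differed by 3.06 ± 0.84 (limma adjusted p = 0.00233). Without replicate 1 or replicate 3 of the glands other than the epididymis, the DEFB136 call was lost, with adjusted p of 0.0517 and 0.0572.

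In bulbourethral gland, DEFB1 scaffold was called higher, where 8.45% of all genes tested were. It was measured at 173.2, 270.5 and 46.6 TPM in BMI and at 58.4, 298.2 and 185.5 TPM in DSE, and all other members were below 1 TPM in every library of this gland. The difference from the other 4 glands was 2.42 ± 0.95 (SE, limma adjusted p = 0.0335). This call did not hold with size factors, without a filter, or without replicate 1 or 3, where the adjusted p lay between 0.0517 and 0.163.

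Among the 6 members that passed the filter without the libraries of any 1 gland, lower calls were made as well. They were 3 in testis (12.7% of all genes tested), 1 in vesicular gland (30.1%) and 3 in bulbourethral gland (12%). The 1 in vesicular gland, DEFB119, was no longer called lower without replicate 2. Each sets a gland against a mean that includes the epididymis.

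In prostate gland no member was called higher, where 3.70% of all genes tested were, and 4 of these 6 were called lower, where 12.8% were (DEFB115, DEFB119, DEFB136 and DEFB1 scaffold). The 3 members above 10 TPM in any prostate library were those called higher in vesicular gland, all in the library that stood apart. In the other 5 libraries no member exceeded 3.36 TPM. DEFB1 scaffold was at 1518 TPM in BMI replicate 2 and at most 3.36 TPM in the other 5 libraries. DEFB115 was at 126.6 TPM there and listed at 0 in the other 5. DEFB136 was at 35.2 TPM there and at most 0.0461 TPM in the other 5. The 4 were also called lower without this library, and without replicate 2. Without replicate 1 or replicate 3, 2 of them were (DEFB115 and DEFB119).

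**Figure D4:**
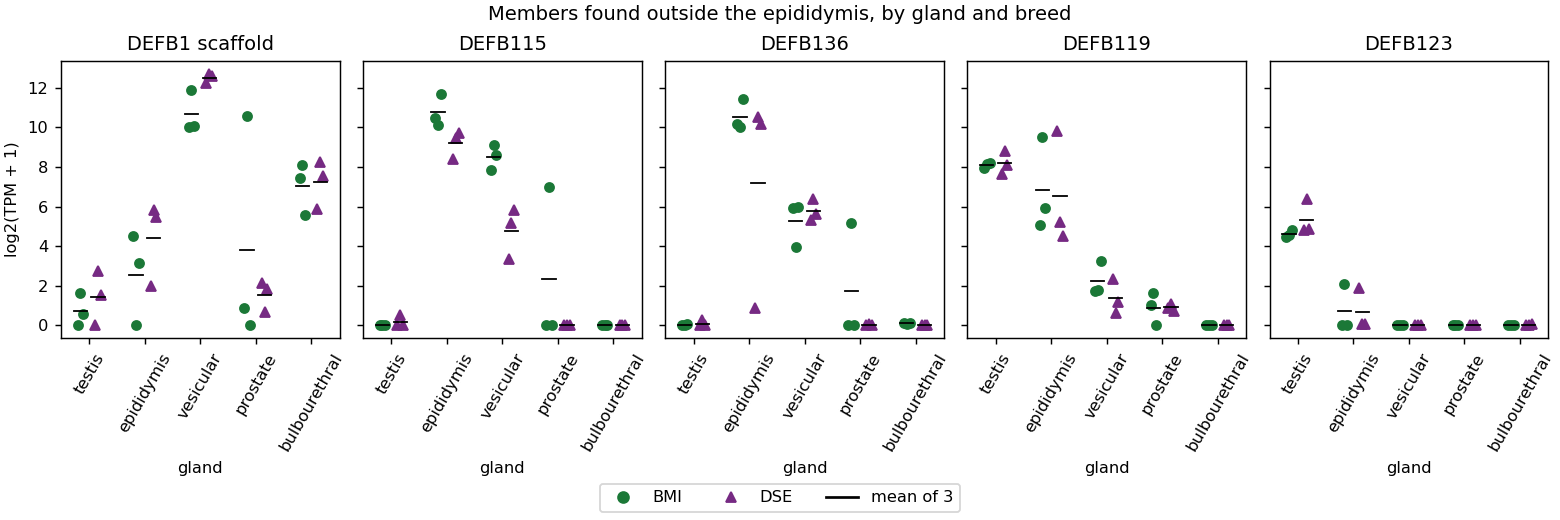
Level, as log2(TPM + 1), of the 5 members with a mean of at least 1 TPM in a gland other than the epididymis. They are shown by gland (x axis) and breed (circles BMI, triangles DSE, 1 point per library, bars the mean of 3). DEFB1 scaffold is highest in vesicular gland, DEFB119 in testis lies between its high and its low epididymis libraries, and the single high BMI point in prostate gland is replicate 2 for DEFB1 scaffold, DEFB115 and DEFB136.

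The study set an inbred line beside pigs that are not inbred, so the breeds were compared within each gland. In epididymis limma called 0 of the 15 members, where 0.702% of all genes tested were called, and 2 had an unadjusted p below 0.05. These were SPAG11, with a difference of DSE minus BMI of 4.29 ± 1.99 (95% interval 0.18 to 8.40, limma adjusted p = 0.652), and DEFB136, with -3.36 ± 1.51 (-6.48 to -0.25, limma adjusted p = 0.613). These intervals rest on 1 spread per gene over all 10 groups. SPAG11 was at most 1.87 TPM in the other glands, while its SD over the 6 epididymis libraries was 5.80. That of DEFB136 was 3.95. Both intervals are thus too narrow for the epididymis and are not read as excluding 0. The interval was -4.01 to 3.07 for DEFB129 and -2.68 to 2.05 for DEFB110. Differences of several fold between the breeds were therefore not detectable here. For the same comparison, simulated differences of 3 and 1.5 log2 were called for 95.5% and 62% of 200 genes drawn from the 19796 tested, most of which vary less than the members. Leaving out BMI 2 gave a call for SPAG11, and leaving out DSE 2 gave calls for SPAG11 and DEFB128, each higher in DSE.

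DEFB115 was the 1 member whose breeds did not overlap in the epididymis, which 5.36% of all genes tested did not. Its lowest BMI library, at 1092 TPM, lay above its highest DSE library, at 850.6 TPM, and the difference was -1.56 ± 1.05 (SE, limma adjusted p = 0.928). In vesicular gland the same gene was measured at 229.9, 543.4 and 380.7 TPM in BMI and at 9.14, 34.5 and 56.3 TPM in DSE, again without overlap, which was the case for 22.9% of all genes tested in that gland. The difference of DSE minus BMI was -3.73 ± 1.05 (95% interval -5.89 to -1.56, limma adjusted p = 0.118), and it was not called. Left without BMI prostate replicate 2, the same fit called it. It was also called when replicate 2 of all glands but the epididymis was left out.

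DEFB1 scaffold did not overlap between the breeds in vesicular gland either, with all 3 DSE libraries above all 3 BMI libraries. Its difference was 1.86 ± 1.69 (SE, limma adjusted p = 0.666). DEFB116 and DEFB125 did not overlap there in the opposite order, BMI above DSE, at levels of at most 0.251 and 1.93 TPM. Across the 4 glands other than the epididymis, limma called 0 members between the breeds. Of all genes tested, 4.78% were called in testis and 0.49% in vesicular gland, while the prostate had 0.596% and the bulbourethral gland 0.298%. An unadjusted p below 0.05 was reached by DEFB115 in vesicular gland and by DEFB115 in prostate gland, the latter resting on BMI replicate 2. In testis the breeds did not overlap for DEFB123, beside 22.9% of all genes tested there. In prostate gland this was so for 31.5% of all genes and for no member. In bulbourethral gland it was so for DEFB136, at 0.0453 to 0.0986 TPM in BMI and listed at 0 in DSE, and for 9.63% of all genes. The breed difference of a gland was also set against that of the other 4, and limma called 0 members in each of the 5 cases, where the share of all genes called was 3.86% for testis, 0.157% for epididymis, 0.192% for vesicular gland, 0.187% for prostate and 0.0909% for the bulbourethral gland. An unadjusted p below 0.05 was reached by 1 member for vesicular gland and 0 for the rest.

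SPAG11 illustrates how the transcripts of a gene differed between libraries with high levels. Its gene had 8 annotated transcripts, 2 from Ensembl and 6 from Iso-seq, and all 8 hold the bases of the 6-cysteine span. An Ensembl transcript of 389 bases was at 880.7 TPM in BMI 2, at 59.5 TPM in DSE 3 and listed at 0 in DSE 1. The Ensembl transcript of 511 bases with 6 exons was at 931.1 TPM in BMI 2 and 10950 TPM in DSE 1. An Iso-seq transcript of 450 bases was at 578.6 TPM in BMI 2 and 12130 TPM in DSE 1. Reads shared by these transcripts were divided by salmon, so the split is an estimate. For DEFB115, an Iso-seq transcript of 441 bases took 83% of the epididymis TPM and the Ensembl transcript of 390 bases 17%.

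Iso-seq, with 1 epididymis library per breed and no replicate, counted full-length reads of members as whole transcripts. Of the 17 members, 13 had at least 1 isoform, 32 in all, of which 10 matched the splice sites of an Ensembl transcript in full or in part. The 32 isoforms had 1757 full-length reads, 1190 in BMI epididymis, 526 in DSE epididymis and 41 in the other 8 libraries. The authors' labels call 8 of them coding and 24 non-coding, and mark 15 as intron retention. The non-coding ones include all 7 of SPAG11 and the main isoform of DEFB128, with 1096 reads. Rates are per full-length read assigned to a deposited isoform, 458697 in BMI and 231413 in DSE epididymis. The study lists larger totals of full-length reads before isoforms were made, which were not used here and would lower the rates, those of DSE the most. On the totals used, a count of 0 allows a rate of up to 6.54 and 13.0 per 1000000 reads (3 reads), which covers counting error only.

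DEFB128 made up 63.6% of the full-length reads of the family. It had 753 in BMI epididymis, or 1640 per 1000000 reads (Wilson 95% interval 1530 to 1760), and 364 in DSE epididymis, or 1570 per 1000000 reads (1420 to 1740). SPAG11 followed with 198 per 1000000 reads in BMI (162 to 244) and 601 per 1000000 reads in DSE (509 to 709), and its main isoform changed. The isoform of 4545 bases had 74 reads in BMI and 0 in DSE epididymis, and the isoform of 1828 bases had 3 reads in BMI and 137 in DSE. Several members were read in BMI almost alone. DEFB113 had 106 reads in BMI and 2 in DSE, DEFB127 had 70 and 4, DEFB116 had 65 and 0, and DEFB121 had 62 and 0. These compare 2 libraries and not the breeds.

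Full-length reads and short-read levels ranked the members differently. DEFB136 and DEFB129, with epididymis means of 1255 and 1525 TPM, had 0 full-length reads in both epididymis libraries, as had DEFB125 with 327.3 TPM. DEFB115, with a mean of 1289 TPM, had 0 and 2. The Ensembl transcripts of these members are 670 bases for DEFB129, 781 for DEFB125, 390 for DEFB115 and 1427 for DEFB136, and 1.71% of all Iso-seq isoforms are shorter than 1000 bases. The main isoform of DEFB128 measured 3504 bases against 1598 in Ensembl, that of DEFB110 2534 against 399, and that of DEFB114 2535 against 799. The part of transcript length in the missing reads was not tested. In prostate gland the BMI library had 10 reads of DEFB1 scaffold and 9 of DEFB136, and the DSE library none of either. The BMI and DSE vesicular libraries had 3 and 3 reads of DEFB1 scaffold and 1 and 4 of DEFB136. Since the BMI prostate library held the vesicular-gland genes at 20.2% of its reads, neither gland nor breed is read from these counts.

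**Figure D5:**
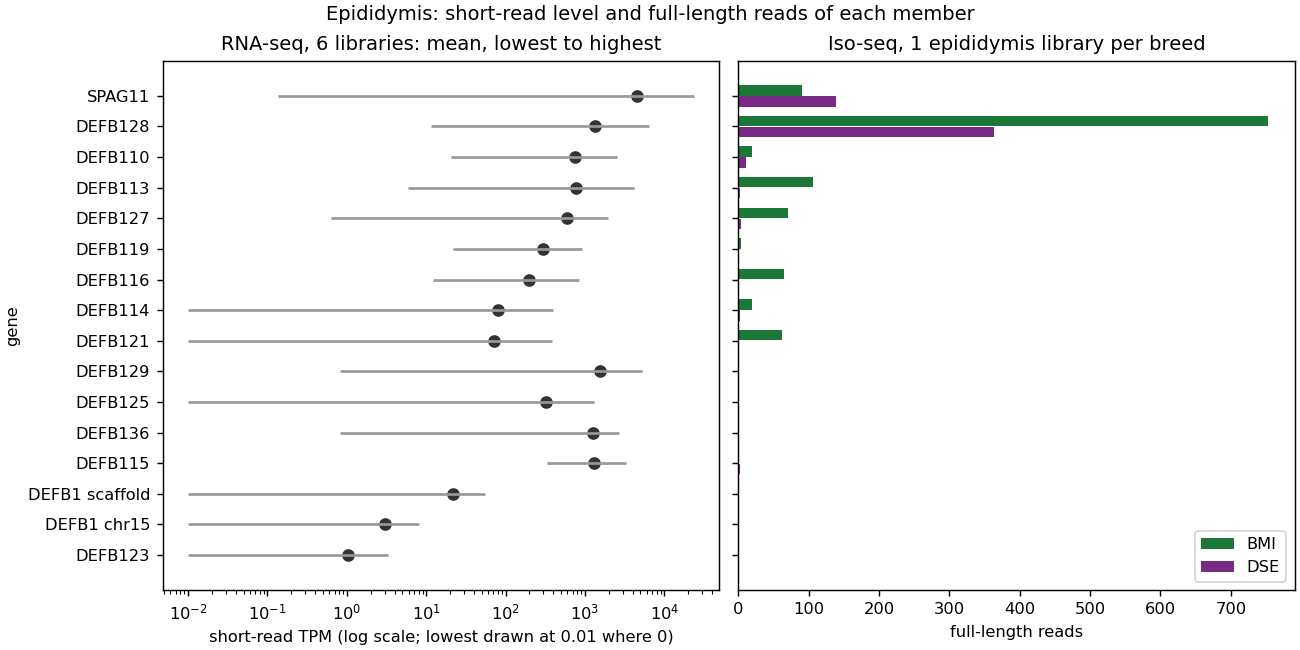
For 16 members in epididymis, the mean short-read level with the range over 6 RNA-seq libraries (left, TPM, log scale, with lows of 0 drawn at the left end) and the number of full-length reads in the 1 Iso-seq library of each breed (right). DEFB128 has the most full-length reads, 753 and 364, while DEFB129 and DEFB136 have means above 1000 TPM and 0 reads.

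The rule by gene name misses relatives that the deposited annotation leaves unnamed. Within 100 kb of these clusters, 7 Ensembl genes with no name each overlap a gene that RefSeq calls a beta-defensin, SPAG11 or SPAG11B on the same strand. The one at DEFB135 had a mean of 3767 TPM in the epididymis, from 1985 to 8300, and like DEFB115 it was present in all 6 libraries. The one at DEFB112 was as broad, from 411.1 to 1901 TPM. The one at DEFB124, which overlaps DEFB123, reached 3241 TPM in BMI 2 and 178 TPM in DSE 1 and at most 0.181 TPM elsewhere in the organ. One at SPAG11B was at 3805 TPM in BMI 2 and 968.8 TPM in DSE 1. The one at DEFB134, on chromosome 14 with DEFB136, was at 577.2 TPM in DSE 1, where DEFB136 was near 0, and between 11.7 and 40.8 TPM in the other 5 libraries. The one at DEFB133 stayed between 3.77 and 43.7 TPM, and another, at both SPAG11 and SPAG11B, between 4.23 and 13.7 TPM.

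Other genes of the pathway were compared by the same fit. Of 30 further antimicrobial proteins listed, 16 were tested, and 9 (of all genes tested, 15.1%) were called higher in epididymis and 0 (6.56%) lower. Among them LTF, the iron-binding protein lactoferrin, differed by 6.79 ± 0.60, ANG, a ribonuclease, by 4.14 ± 0.45, and PMAP-23, a cathelicidin, by 2.95 ± 0.52 (SE, limma adjusted p of 1.75e-09, 3.86e-08 and 3.59e-05). LTF and ANG were also called higher in vesicular gland, with 3.69 ± 0.60 and 2.34 ± 0.45 (limma adjusted p of 8.66e-06 and 6.03e-05). They were the 2 called higher there (2.95% of all genes), and 4 were called lower (30.1%). In bulbourethral gland 4 were called higher (8.45%) and 2 lower (12%). LYZ differed by 6.19 ± 0.29 there (SE, limma adjusted p = 1.15e-14). In testis 1 was called higher (34.6%) and 8 lower (12.7%). In prostate gland, with BMI replicate 2 in the fit, 1 was called higher (3.70%) and 3 lower (12.8%). The 9 include 1 of 2 genes named NPG3, a cathelicidin (ENSSSCG00000053533), which was also the 1 of the 16 called between the breeds in epididymis (0.702% of all genes). It was at 3.54, 14.9 and 13.9 TPM in BMI epididymis and listed at 0 in the 3 DSE libraries. The BMI values let it pass the filter, so nothing is read from either call. The other gene of that name (ENSSSCG00000031090) was listed at 0 in BMI and at 1.58, 1.32 and 0 TPM in DSE. Reads may have been split between the 2 genes. LYZ was called between the breeds in prostate gland, with BMI replicate 2 in the fit (0.596% of all genes). Its difference of DSE minus BMI was 2.75 ± 0.52 (SE, limma adjusted p = 0.00758). Of 20 receptors and regulators listed, 14 were tested and 2 were called higher in epididymis, a share near the 15.1% of all genes: IL1R1, a receptor of interleukin 1, by 3.14 ± 0.29 and TLR3, a sensor of double-stranded RNA, by 2.26 ± 0.25 (limma adjusted p of 4.30e-09 and 5.12e-08). CCR6, a chemokine receptor that beta-defensins can bind, had a mean of 0.153 TPM in epididymis.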

How the data were processed

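The study names 30 tissue samples as the source of total RNA. The authors sequenced 70 libraries, of which 30 RNA-seq and 10 Iso-seq libraries were used here. Small RNA was not analysed here. The authors estimated TPM per transcript with salmon 1.9.0 on Ensembl 107 merged with Iso-seq isoforms outside the full and incomplete splice matches (Sscrofa11.1), and deposited these TPM. For Iso-seq the authors deposited, per isoform and library, the raw count of full-length reads. The labels give rRNA depletion for RNA-seq, and the methods give poly-T beads.

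TPM were summed by gene ID. Genes with at least 1 TPM in at least 3 of the 30 libraries entered limma 3.58.1 in R 4.3.3 (lmFit, contrasts, eBayes with trend) on log2(TPM + 1), with 10 groups of breed and gland; p-values were adjusted by Benjamini-Hochberg over all genes tested. TPM keep no depth, and the study's read totals were not used; Iso-seq libraries held 231413 to 458697 reads assigned to isoforms. The methods state no test of gene levels between glands. Members, lists and rules were chosen with earlier results of these data known: all members are described, those with a mean of at least 1 TPM in a gland in full; likeness names 5 genes by Pearson's r; marker lists (proximal, distal and whole epididymis, spermatids, Sertoli cells, ciliated and efferent duct, smooth muscle, leukocytes, epithelium) were typed from general knowledge. Sequences were cut from the RefSeq copy of the build by a pattern of 6 cysteines. Alternatives were a pseudocount of 0.1, no filter, size factors, Ensembl transcripts alone, a replicate block, the gland alone and leaving out libraries. The fit was tested on simulated data. Python 3.11.15 with pandas 2.3.3 was used.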

Additional observations from a re-analysis of the deposited data

Results flagged for a closer look

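Among 32 sets of 6 libraries of a gland, both breeds together, in which a member or the sum of members had a mean of at least 1 TPM, 6 had a library whose gap to its neighbour exceeded Dixon's critical ratio on the log2(TPM + 1) scale; chance gives about 1 in 20. In prostate gland, BMI replicate 2 was far above the other libraries for DEFB1 scaffold (1518 TPM, others at most 3.36), DEFB115 (126.6 TPM, others at 0), DEFB136 (35.2 TPM, others at most 0.0461) and the sum of members (1682 TPM, others at most 4.25). In testis, DSE replicate 2 was far above the others for DEFB123 (82.2 TPM, others 20.7 to 27.7). In epididymis, DSE replicate 1 was far below the others for DEFB136 (0.831 TPM, others 1047 to 2721). The breed difference of no member was called to differ between a gland and the other 4 by limma's interaction contrast, and an unadjusted p below 0.05 was reached by 1 member for vesicular gland and 0 for each of the others.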

How the results depend on the processing

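The count of members called higher in epididymis was 12 to 14 over 12 alternatives, against 13 in the main fit. That of calls in another gland was 4 to 6 over 9, against 6. Both stayed within 1.5 times the main count. The 13 are the 5 reported and the 8 that needed the epididymis to pass the filter. The 6 are the 5 reported and that of DEFB123 in testis. Of the 6 members that needed no single gland to pass, 5 were called higher in epididymis in all 15 alternatives. In other glands, the calls of DEFB136 in vesicular and DEFB1 scaffold in bulbourethral gland were lost without replicate 1 or 3. The 5 reported calls alone then moved by more than 1.5 times. Leaving out 1 epididymis library each gave 12 to 13 and 0 to 2 members differing between the breeds there, against 0; the 1 came without BMI replicate 2 and the 2 without DSE replicate 2. In the other glands, leaving out replicates 1, 2 or 3 gave 4 to 6 and 0 to 1 calls, the 1 being DEFB115 in vesicular gland, which was also the 1 call without BMI prostate replicate 2, an alternative chosen after seeing the data. Replicate numbers pair no samples by the labels. Same-numbered libraries of different glands correlated above 0.1 in their deviations from the group means in 21 of 60 pairs (median 0.0408), and those of the breeds within a gland in 4 of 15. With a replicate block these 4 counts were 13, 6, 0 and 0. DEFB1 scaffold was added as lower in epididymis, as in 5 of 15 alternatives. Between the breeds the block left 0 of all 19796 genes called in every gland, so its counts of 0 decide nothing. Over single members no direction turned. Among calls in other glands, 55 values over 17 results lost the threshold, most often without replicate 1, 2 or 3. A fit of the 6 libraries of a gland alone gave 0 and 0 for breeds, and was not run between glands. Of all 19796 genes it called 0 in epididymis. In testis, where it called the most, 10 were higher and 29 lower, so these counts decide little. Depth limits what a listed 0 means.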
